A study of Homo sapiens with 10 samples.

Results

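The genes described here are 32 established transcriptional targets of wild-type p53, taken by symbol from a list that was drawn up with earlier results of these data known. Of these, 30 had a probe set of their own on the arrays, with 60 probe sets in all, and each gene is represented by its probe set of highest mean log2 signal. BTG2 and FDXR had no probe set that carried their symbol alone in the gene table used and were not analysed here. A total of 27 of the 32 lay above the signal filter, a signal of 35.34, among 12034 genes of the series that did. The cells were SKBR3, an established breast carcinoma line with amplified HER2 that expresses mutant p53, so every group carries the mutant protein unless the siRNA removed it. Cells in charcoal-stripped serum received siRNA directed at p53 (p53i) or, as the negative control, at the bacterial gene LacZ (LacZi). They were harvested untreated, with 2 arrays for each siRNA, or after 8, 20 or 50 h with calcitriol (D3 here), the active hormone made from vitamin D3, at 100 nM, with 1 array for each siRNA and time. The 10 arrays therefore hold 5 of each siRNA, or 4 untreated and 6 with D3. Adding D3 is placed 24 h after transfection in the sample text and 48 h in the series text. No untreated array is labelled as harvested together with a treated one, and the effects of D3 and of longer culture cannot be told apart. The untreated arrays are labelled biological replicates; nothing says that the D3 arrays came from separate cultures, so a p-value here reflects the spread of these samples alone, which may be technical.

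Wild-type p53 is a transcription factor that is stabilised by DNA damage and other stress. It binds paired copies of a ten-base consensus near its target genes, whose products halt the cell cycle, repair DNA, limit oxidative stress and promote cell death. Hot-spot missense mutants in the DNA-binding domain largely lose this activity, often accumulate in tumour cells and can act through other transcription factors. Calcitriol binds the vitamin D receptor, which pairs with the retinoid X receptor on DNA. The comparison of p53i with LacZi asks which of these targets differ when mutant p53 is targeted, and the D3 arrays ask which differ when the hormone is added.

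Sequences around transcription starts are shown because the members were listed as p53 targets and because DDB2, one of the genes that differed with D3, holds the only paired match among them. RefSeq promoter windows (build GRCh38.p14, 250 bases before to 50 after each start) were matched for 26 of the 32 genes, in 36 windows. GADD45A, PHLDA3, RRM2B, TNFRSF10C, TP53INP1 and TRIM22 had no entry. The p53 consensus half-site, searched on both strands, occurred in 6 of the 36 windows (16.7%), compared with 6.63% of 35116 windows of all genes. These shares are descriptions only, since the genes were picked as p53 targets. The 30-base stretches below run 5′ to 3′ on the gene's strand, with each half-site in capitals, for the 5 measured genes that hold a match.
DDB2: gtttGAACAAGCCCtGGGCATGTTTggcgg
PLK2: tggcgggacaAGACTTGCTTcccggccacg
SESN1: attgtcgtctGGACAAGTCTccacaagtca
RPS27L: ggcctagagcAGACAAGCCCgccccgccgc
AEN: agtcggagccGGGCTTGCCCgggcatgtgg
The DDB2 stretch lies at chr11:47214975-47215004 on the plus strand and holds 2 half-sites with 1 base between them, the first beginning at position 6 after the start. The other 4 hold 1 each: PLK2 at chr5:58460199-58460228 (minus strand), SESN1 at chr6:109009018-109009047 (minus), RPS27L at chr15:63157517-63157546 (minus) and AEN at chr15:88621296-88621325 (plus). Neither window of CYFIP2, the member with the largest siRNA difference, held a half-site match. The 250 bases before its first start, chr5:157265873-157266122 on the plus strand, have a GC content of 76.4% and are shown with 5 matches to GGGCGG, the core of GC boxes, in capitals (on either strand).
CYFIP2: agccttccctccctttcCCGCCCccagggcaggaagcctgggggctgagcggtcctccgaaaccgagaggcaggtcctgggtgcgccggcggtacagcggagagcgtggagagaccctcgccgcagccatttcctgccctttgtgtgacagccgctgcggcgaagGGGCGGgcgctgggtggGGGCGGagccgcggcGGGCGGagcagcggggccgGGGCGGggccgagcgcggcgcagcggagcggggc
GGGCGG occurred in 77.8% of the members' windows and 45.0% of all windows. The hexamer AGGTCA is the core sequence that nuclear receptors bind. It was searched on both strands together with its variant AGTTCA. The variant with GG at its start, GGTTCA, was counted as well, and any of these was in 22.2% of the members' windows and 28.9% of all windows. A pair of such hexamers with 3 bases between, the usual spacing for the vitamin D receptor, was in 0 of the members' windows and 0.037% of all windows. A missing match says only that these letters are not in this window.

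The median signal of an array ran from 35.7 to 44.3 units. The 3′/5′ signal ratio of the ACTB controls, which rises as RNA degrades or labelling shortens, was 4.46 ± 0.523 (SD, n = 5) on LacZi arrays and 6.22 ± 1.77 (SD, n = 5) on p53i arrays (exact permutation test, two-sided, p = 0.0714), and was highest on p53i untreated replicate 2 (8.72) and p53i 20 h (7.11). Of 10 luminal and HER2 markers, 9 lay above the filter and CDH1 did not (2.8 to 23.9 units). Their summed signal was 70810 to 78210 units on LacZi and 80170 to 104900 on p53i arrays, without overlap. Of all genes, 3.09% lay apart with p53i higher. By the rule given below, 3 of the 9 rose with p53i, compared with 3.38% of all genes. These were KRT8 by 0.42, GRB7 by 0.38 and GATA3 by 0.35, as log2 differences. Leukocyte markers lay above it for 2 of 8 genes, with a summed signal of 192.6 to 276.1 units on LacZi and 142 to 223.7 on p53i arrays, and stromal and endothelial markers for 3 of 10, with sums of 567.2 to 812 and 528.6 to 714.8. The 2 leukocyte genes above the filter were CD3E (27.4 to 64 units) and ITGAM (16.3 to 62.5), CD14 reached 127 units on its highest array, and PTPRC, the pan-leukocyte gene, stayed at or below 20.9. The siRNA's own target was not analysed here, and its loss was therefore not checked. Of 11 interferon-stimulated genes tested, 10 rose on p53i arrays (3.38% of all genes did), with a median log2 difference of 1.96 (all genes -0.00493). The part of this rise, of the higher luminal markers or of the ACTB ratio in the siRNA differences below was not tested; for the genes called between the siRNAs, values with the ratio in the model are given beside them.

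Targeting p53 was followed by a rise of 2 of the 27 tested targets and a fall of 0. CYFIP2, a subunit of the WAVE actin-regulatory complex that p53 induces during apoptosis, rose 2.45-fold, and PLXNB2, a plexin receptor for class 4 semaphorins, rose 1.27-fold, on the log2(signal + 16) scale used throughout. Calls were made at a limma adjusted p under 0.05, with Benjamini-Hochberg adjustment over all 12034 genes. By that rule 6.49% of all genes were called, 3.38% higher and 3.11% lower, so 2 of 27 is near the background. The median log2 difference of the 27 was -0.03, and that of all genes was -0.00493. An unadjusted p under 0.05 was reached by 4 of the 27, compared with 22.9% of all genes.

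CYFIP2 gave LacZi signals of 753 and 670 units on the untreated arrays and 583, 374 and 253 at 8, 20 and 50 h. The p53i signals were 1250 and 1940 untreated and 1310, 1010 and 841 with D3. Every p53i array was above every LacZi array, including the p53i 50 h array, the lowest of its group, and CYFIP2 was the only one of the 27 whose siRNA groups did not overlap; among all genes 3.09% lay apart with p53i higher and 3.3% with p53i lower. The log2 difference was 1.29 ± 0.128 (SE; limma adjusted p = 0.000269), and it was higher in all 4 matched conditions, by 1.12 untreated and by 1.14, 1.40 and 1.67 at 8, 20 and 50 h. A second, dimmer CYFIP2 probe set also rose, by 0.90 ± 0.158 (SE, limma adjusted p over all probe sets 0.0126). Its siRNA groups overlapped, at 35.6 to 121 units on LacZi and 83.4 to 211 on p53i arrays. The call of the reported probe set held with each of the 10 arrays left out (1.20 to 1.41), with the ACTB ratio in the model (1.08, limma adjusted p = 0.00744) and without the 2 arrays of highest ratio (1.17).

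PLXNB2 was among the brightest of the targets. Its LacZi signals were 4070 and 3870 units untreated and 4330, 4390 and 4800 with D3, and its p53i signals were 4720 and 6150 untreated and 4760, 5550 and 6110 with D3. The groups overlapped, since the LacZi 50 h array exceeded the lowest 2 of the p53i arrays. The log2 difference was 0.34 ± 0.082 (SE; limma adjusted p = 0.0328). The call was lost in 6 of 10 fits with 1 array left out, namely without either LacZi untreated array, either 20 h array or either 50 h array (0.31 to 0.34, limma adjusted p = 0.0764 to 0.116). With the ACTB ratio in the model the value was 0.17 (limma adjusted p = 0.309). The luminal markers KRT8, GRB7 and GATA3 differed by a like amount in the same direction (0.42, 0.38 and 0.35), and their part in the PLXNB2 difference was not tested.

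**Figure D1:**
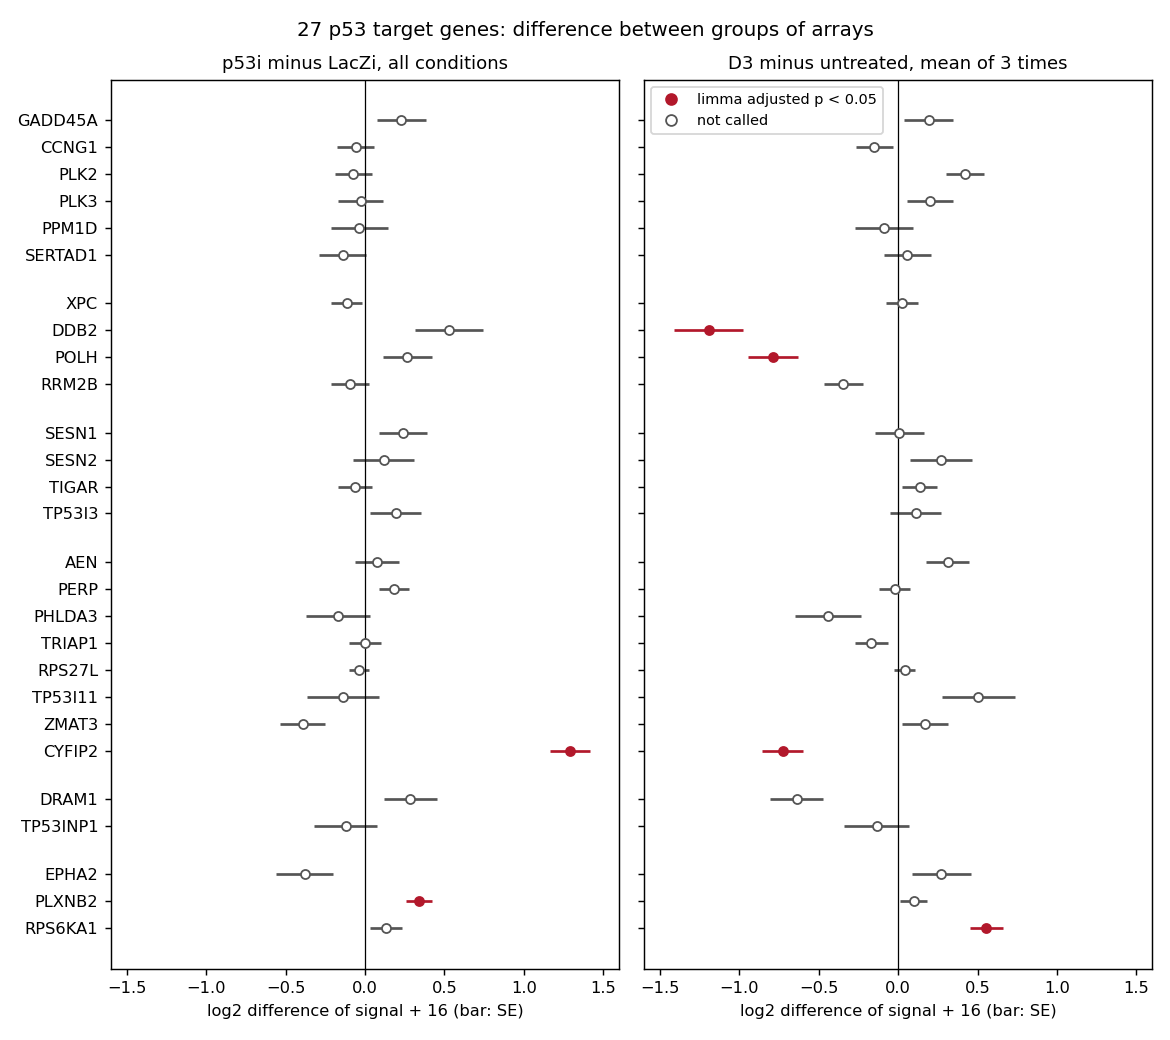
Log2 difference of signal + 16 for each of the 27 tested p53 targets, ordered by role, with the standard error as a bar; p53i minus LacZi on the left and D3 minus untreated (mean of the 3 times) on the right. Filled red points passed limma's adjusted p threshold: CYFIP2 and PLXNB2 on the left, and DDB2, POLH, CYFIP2 and RPS6KA1 on the right.

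The remaining 25 targets were not called, and none of the 25 was called under any alternative setting. DDB2, which recognises ultraviolet lesions for nucleotide excision repair, differed by 0.53 ± 0.214 (SE; limma adjusted p = 0.161), with overlapping groups. ZMAT3, a zinc finger RNA-binding protein, differed by -0.39 ± 0.14 (SE; limma adjusted p = 0.115), from LacZi signals of 145 and 218 untreated and 227, 207 and 263 with D3 to p53i signals of 151 and 160 untreated and 158, 138 and 168 with D3. Its probe sets disagreed: 2 others stood at -0.48 and -0.32 and a further one at 0.09. EPHA2, an ephrin receptor kinase, stood at -0.38 ± 0.18 (SE; limma adjusted p = 0.233). The other 22 targets lay between -0.17 for PHLDA3, an inhibitor of AKT signalling, and 0.29 for DRAM1, a lysosomal regulator of autophagy.

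By role, the cell cycle genes showed small differences: 0.23 for GADD45A, a growth arrest and stress sensor, -0.06 for CCNG1 (cyclin G1), -0.07 for the polo-like kinase PLK2, -0.03 for PLK3, -0.04 for the phosphatase PPM1D, which turns off p53 signalling, and -0.14 for SERTAD1, a CDK4 regulator, each with a standard error of 0.115 to 0.18. None of these was called. The redox and metabolism genes stood at 0.24 for SESN1 and 0.12 for SESN2, the sestrins that restrain mTORC1, at -0.06 for the fructose bisphosphatase TIGAR, and at 0.19 for the quinone reductase TP53I3. The 95% interval of TIGAR ran from -0.343 to 0.214, and differences within it were not excluded by these arrays. Among death and survival genes other than those above, the exonuclease AEN stood at 0.08, the desmosomal protein PERP at 0.18, the apoptosis inhibitor TRIAP1 at -0.000911, the ribosomal protein homologue RPS27L at -0.04 and TP53I11 at -0.14. Other probe sets above the filter stood at -0.08 and 0.44 for PERP, 0.18 and 0.15 for RPS27L and 0.25 for TP53I11, none called. XPC, the global damage sensor of nucleotide excision repair, stood at -0.12 and RRM2B, the p53-inducible ribonucleotide reductase subunit, at -0.09. POLH stood at 0.27, TP53INP1 at -0.12 and RPS6KA1 at 0.13.

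Untreated cells alone were compared in a fit of the 8 groups that leaves 2 residual degrees of freedom. There 0 of 27 targets were called by limma, as against 0.00831% of all genes. Of all genes 11.4% had an unadjusted limma p under 0.05, and so did 3 of the 27. These were CYFIP2 (1.12 ± 0.219, SE; limma adjusted p = 0.252), PLXNB2 (0.44, limma adjusted p = 0.368) and EPHA2 (-0.74, limma adjusted p = 0.367).

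With D3, 3 of the 27 targets fell and 1 rose. DDB2 fell 2.28-fold, POLH, the polymerase eta that copies past ultraviolet damage, fell 1.73-fold, and CYFIP2 fell 1.65-fold, as the mean of the 3 times. RPS6KA1, the kinase RSK1 downstream of ERK, rose 1.47-fold. Of all genes 4.4% were called, 1.99% higher and 2.41% lower, and the median was 0.04 for the targets and -0.00471 for all genes. An unadjusted p under 0.05 was reached by 9 of the 27, compared with 19.4% of all genes. The list was drawn up with earlier results of these data known, and DDB2, POLH and CYFIP2 were named for this comparison beforehand. The D3 counts beside shares of all genes, here and below, are therefore descriptions only. With the reported probe sets kept, the count of 4 was 0 without LacZi untreated replicate 1, 2 without the p53i 8 h array and 2 without the p53i 20 h array.

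DDB2 signals were 140 and 76.1 units on the untreated LacZi arrays and 169 and 136 on the untreated p53i arrays. In LacZi cells the D3 signals were 48.9, 18 and 44.5 at 8, 20 and 50 h, and p53i cells gave 70.1, 60 and 49.4. Every D3 array was below every untreated array. The log2 difference was -1.19 ± 0.219 (SE; limma adjusted p = 0.0142), lower on 6 of 6 D3 arrays. Several of these signals are close to the filter of 35.34, and the size depends on the offset added before taking logs: -0.78 with an offset of 64 and -1.48 with none, both called. The call was lost without LacZi untreated replicate 1 (-1.04, limma adjusted p = 0.0617) and with group means. The paired half-site printed for DDB2 lies just after the start of one of its 2 RefSeq windows, and the hexamer AGGTCA occurs once in that window, at position -153.

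POLH signals on the reported probe set were 129 and 129 units on the untreated LacZi arrays and 168 and 155 on the untreated p53i arrays. In LacZi cells the D3 signals were 90.9, 72.5 and 49.4, and p53i cells gave 94.9, 72.8 and 89. The groups did not overlap. The log2 difference was -0.79 ± 0.158 (SE; limma adjusted p = 0.0187), but the probe sets of POLH disagreed in size: 2 others above the filter stood at -0.17 and -0.56 and were not called, and the mean over the gene's probe sets was -0.40 (limma adjusted p = 0.197). One of the 2 others, with the suffix x_at, can hybridise to other transcripts. The POLH call was also lost with no offset, no filter, group means and without the 2 arrays of highest ACTB ratio. Over the alternatives of processing its difference ran from -0.88 to -0.20. With the reported probe set kept, the call was lost without LacZi untreated replicate 1, p53i untreated replicate 1, the p53i 8 h array or the p53i 20 h array (-0.79 to -0.73, limma adjusted p = 0.0594 to 0.0697). Where probe sets were chosen again without the LacZi 20 h array, a different probe set was brightest and the difference was 0.02.

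CYFIP2 was lower on 6 of 6 D3 arrays than the mean of the untreated arrays of the same siRNA, with the signals given above. The groups overlapped, also within p53i cells, where the 8 h array (1310 units) lay above untreated replicate 1 (1250). The log2 difference was -0.73 ± 0.13 (SE; limma adjusted p = 0.0132), and the dimmer probe set stood at -0.63 ± 0.161 (SE; limma adjusted p over all probe sets 0.0637). The call was lost without LacZi untreated replicate 1 (-0.66, limma adjusted p = 0.0559), with no trend and with group means. CYFIP2 thus was the only one of the 27 called in both comparisons, higher with p53i and lower with D3.

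RPS6KA1 signals were 434 and 384 units on the untreated LacZi arrays and 465 and 504 on the untreated p53i arrays. In LacZi cells the D3 signals were 568, 663 and 717, and p53i cells gave 718, 708 and 606. Every D3 array was above every untreated array, and the log2 difference was 0.55 ± 0.103 (SE; limma adjusted p = 0.0146). The call was lost without LacZi untreated replicate 1, the LacZi 20 h array, the p53i 8 h array or the p53i 20 h array (0.51 to 0.57, limma adjusted p = 0.0505 to 0.0541). It was also lost with no trend and with group means.

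**Figure D2:**
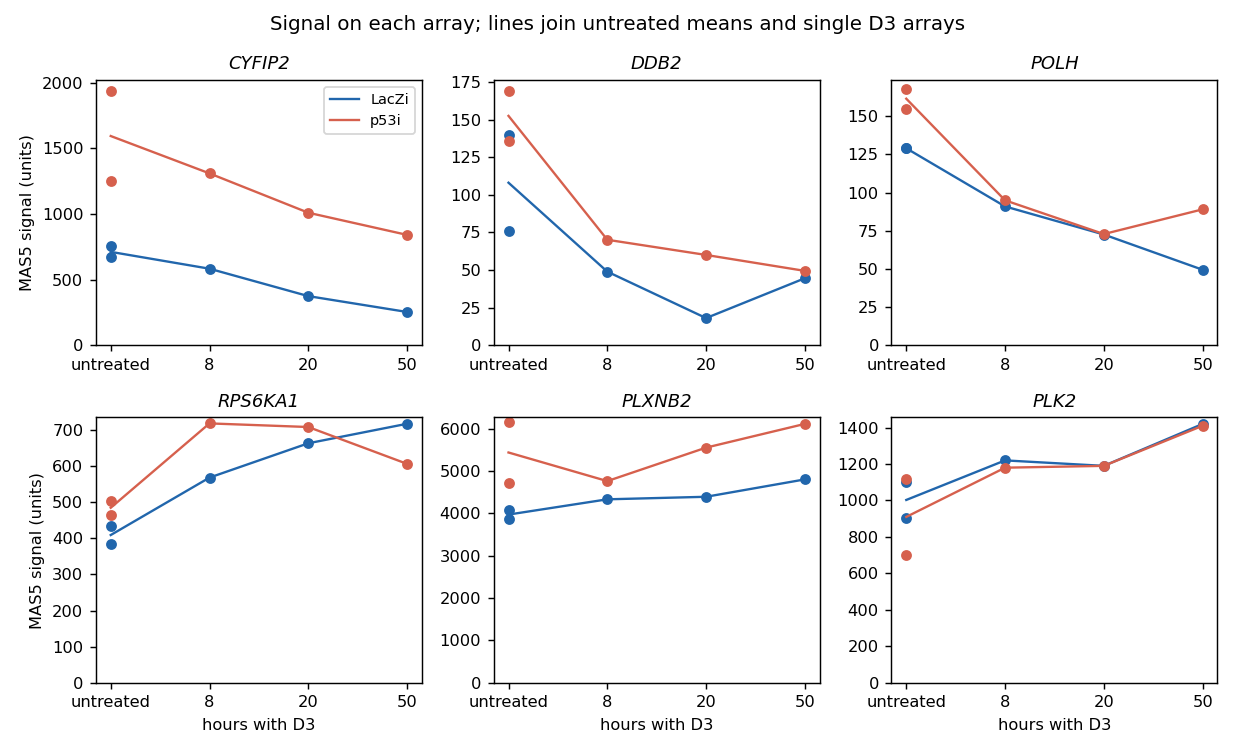
MAS5 signal in units on each array (points) of 6 targets against hours with D3, with the untreated arrays at the left; blue is LacZi and orange p53i, and lines join the mean of the 2 untreated arrays to the single D3 arrays. CYFIP2 is higher on every p53i array than on any LacZi array and lies below the mean of the untreated arrays of the same siRNA at each D3 time, with 253 at 50 h in LacZi cells; DDB2 and POLH are lower on all 6 D3 arrays, and RPS6KA1 and PLK2 higher.

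Across the 27, D3 and untreated arrays lay wholly apart for 2 genes with D3 higher (RPS6KA1 and PLK2) and 3 with D3 lower (DDB2, POLH and RRM2B), compared with 1.88% and 2.47% of all genes. PLK2, a polo-like kinase of centriole duplication, had LacZi signals of 906 and 1100 untreated and 1220, 1190 and 1420 with D3, and p53i signals of 700 and 1120 untreated and 1180, 1190 and 1410 with D3. Its difference was 0.42 ± 0.12 (SE; limma adjusted p = 0.071), and it was called in 5 of 35 alternative fits, among them those without p53i untreated replicate 2. RRM2B stood at -0.35 ± 0.122 (SE; limma adjusted p = 0.136), from untreated signals of 179 to 207 to D3 signals of 111 to 171. DRAM1 stood at -0.64 ± 0.168 (SE; limma adjusted p = 0.0534), with untreated signals of 174 to 230 and D3 signals of 77.2 to 181, and was called in 7 of 34 alternative fits. TP53I11, a p53-inducible membrane protein, stood at 0.51 ± 0.23 (SE, limma adjusted p = 0.253) and AEN at 0.31 ± 0.138 (SE, limma adjusted p = 0.241). The other TP53I11 probe set above the filter stood at 0.002 ± 0.315 (SE).

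The other 18 targets ranged from -0.44 for PHLDA3 to 0.27 for EPHA2. The cell cycle genes other than PLK2 stood at 0.19 for GADD45A, -0.15 for CCNG1, 0.20 for PLK3, -0.09 for PPM1D and 0.06 for SERTAD1. XPC, in the same repair pathway as DDB2, stood at 0.03, with signals of 340 to 460 units over all 10 arrays. SESN1 stood at 0.00724, SESN2 at 0.27, TIGAR at 0.14, TP53I3 at 0.11, PERP at -0.02, TRIAP1 at -0.17, RPS27L at 0.04, ZMAT3 at 0.17, TP53INP1, an autophagy and stress protein, at -0.14, and PLXNB2 at 0.10. RPS27L, among the brightest targets, was also among the steadiest, at 1910 to 2250 units over the 10 arrays. For ZMAT3 the probe sets differed, with 2 others at 0.47 and 0.76, neither called.

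**Figure D3:**
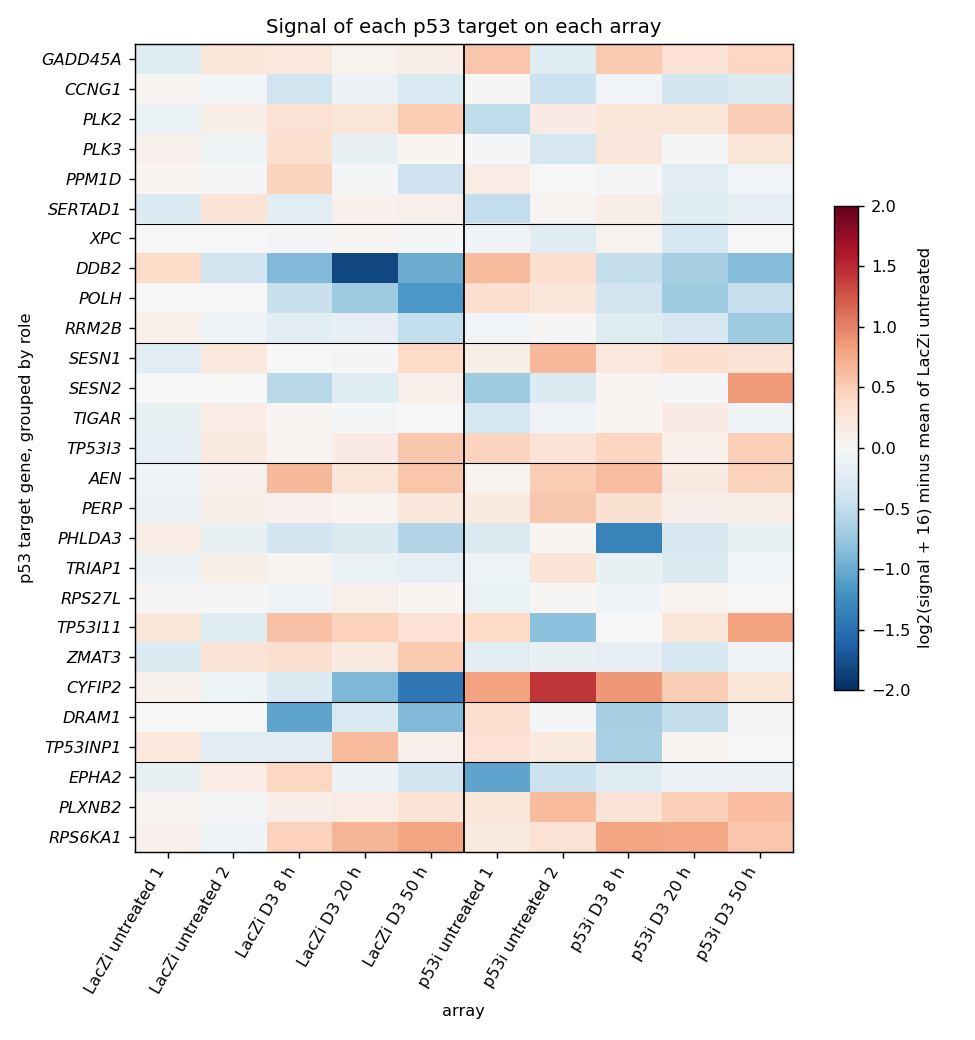
Log2(signal + 16) of each of the 27 targets on each of the 10 arrays, as the difference from the mean of the LacZi untreated arrays; red is higher, blue lower, horizontal lines separate roles and the vertical line separates LacZi from p53i. CYFIP2 is the one row that is red on all p53i arrays and blue on the LacZi D3 arrays, where it stands -1.43 at 50 h; DDB2 is darkest on the LacZi 20 h array at -1.82.

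At single times, where each siRNA has 1 array, 0 of 27 were called at 8 h (0.175% of all genes), 1 at 20 h (0.59%) and 4 at 50 h (4.3% of all genes, 1.83% higher and 2.48% lower). At 8 h 6 of the 27 had an unadjusted limma p under 0.05, compared with 7.51% of all genes. Among the 6 were DDB2 at -0.92, DRAM1 at -0.94 and RPS6KA1 at 0.51. At 20 h DDB2 fell by 1.48 (± 0.293, SE; limma adjusted p = 0.0466), while POLH stood at -0.86 and CYFIP2 at -0.76 without a call. At 50 h CYFIP2 fell by 1.16 (± 0.175, SE; limma adjusted p = 0.00494), POLH by 0.95 (limma adjusted p = 0.0287) and DDB2 by 1.17 (limma adjusted p = 0.0452), and RPS6KA1 rose by 0.55 (limma adjusted p = 0.0453). With the reported probe sets kept, the 20 h call of DDB2 was lost in 8 of 10 fits with an array left out, all but those without LacZi untreated replicate 2 or p53i untreated replicate 2 (-1.87 to -1.09). At 50 h CYFIP2 lost its call without the LacZi 50 h array (-0.92). The other 50 h calls were lost in 7 fits for DDB2 (-1.43 to -0.91), all but those without LacZi untreated replicate 2, the LacZi 20 h array or p53i untreated replicate 2, in 4 for POLH (either untreated replicate 1 or either 50 h array, -1.21 to -0.69) and in 9 for RPS6KA1 (all but p53i untreated replicate 2, 0.32 to 0.78). The count at 50 h was 0 without the LacZi 50 h array, 1 without either untreated replicate 1 or the p53i 50 h array, and 2 without either 8 h array or the p53i 20 h array.

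Tested directly, 50 h against 8 h gave 0 of 27 calls by limma (0.133% of all genes). An unadjusted limma p under 0.05 was reached by 2 of the 27, compared with 9.62% of all genes. CYFIP2 stood at -0.89 ± 0.202 (SE; limma adjusted p = 0.148) and SESN2 at 0.74 ± 0.302 (SE; limma adjusted p = 0.461). No order in time was shown for any target.

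Within each siRNA, D3 was compared with untreated arrays through a model with a siRNA-by-D3 term. In LacZi cells 0 of 27 were called by limma (0.391% of all genes), and in p53i cells 0 of 27 (0.54% of all genes). An unadjusted limma p under 0.05 was reached by 6 of the 27 in LacZi cells, compared with 11.9% of all genes. In p53i cells 8 of the 27 reached it, compared with 15.1% of all genes. DDB2 stood at -1.23 in LacZi and -1.15 in p53i cells, POLH at -0.76 and -0.81, CYFIP2 at -0.87 and -0.58, and RPS6KA1 at 0.64 and 0.47. The values lay on the same side of 0 in both. These genes were chosen for a call pooled over the same arrays, so like signs are no separate support. The difference of the D3 effect, p53i minus LacZi, was called for 0 of 27 targets and 0% of all genes by limma. For this difference 1 of 27 had an unadjusted limma p under 0.05, compared with 5.36% of all genes. Its 95% intervals were -1.19 to 1.34 for DDB2, -0.963 to 0.866 for POLH, -0.428 to 0.999 for CYFIP2 and -0.748 to 0.398 for RPS6KA1. Differences within these intervals were not excluded by these arrays. The 1 target was SESN2, at 1.02 ± 0.269 (SE; limma adjusted p = 0.893): its LacZi signals were 238 and 234 untreated and 155, 196 and 254 with D3, and its p53i signals were 138 and 192 untreated and 243, 231 and 439 with D3. The other SESN2 probe set above the filter lay on the opposite side, at -0.47 ± 0.307 (SE; limma adjusted p over all probe sets 0.876).

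**Figure D4:**
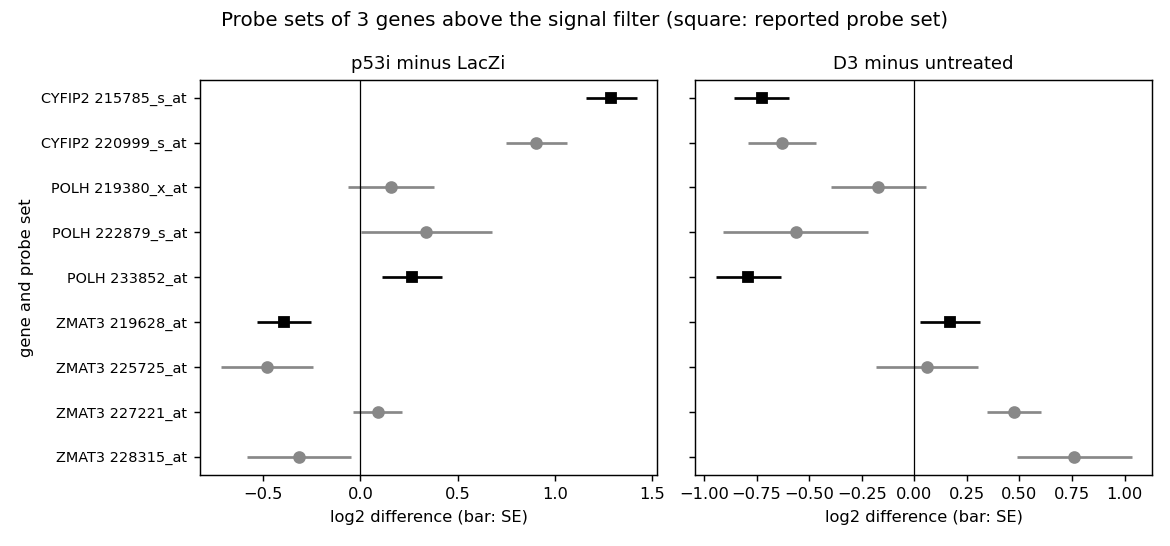
Log2 difference with its standard error for every probe set of CYFIP2, POLH and ZMAT3 above the signal filter, p53i minus LacZi on the left and D3 minus untreated on the right; squares are the reported probe sets. Both CYFIP2 probe sets lie on the same side in both panels, at 1.29 and 0.90 for the siRNA, while those of POLH range from -0.79 to -0.17 with D3 and 1 of the 4 for ZMAT3 lies opposite to the rest for the siRNA.

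The other genes of the pathway were taken from lists, and the same tests applied. Of 28 other p53 pathway genes tested, 1 rose and 1 fell between the siRNAs, and 2 rose and 0 fell with D3. Of all genes 6.49% were called between the siRNAs and 4.4% with D3. An unadjusted limma p under 0.05 was reached by 8 and 6 of the 28, compared with 22.9% and 19.4% of all genes. CDKN1A, the cyclin-dependent kinase inhibitor p21, was not called in either: its LacZi signals were 191 and 255 untreated and 340, 400 and 459 with D3, and its p53i signals were 151 and 241 untreated and 131, 305 and 346 with D3. Its differences were -0.49 ± 0.178 (SE; limma adjusted p = 0.123) for p53i and 0.56 ± 0.182 (SE; limma adjusted p = 0.109) for D3. The siRNA difference of CDKN1A was called, with p53i lower, when the ACTB ratio was in the model (-0.85, limma adjusted p = 0.0458) and without p53i untreated replicate 2 (-0.63, limma adjusted p = 0.0413). Its D3 difference was called without p53i untreated replicate 2 (0.73, limma adjusted p = 0.0257) and without the p53i 8 h array (0.72, limma adjusted p = 0.0475). MDM2, the ubiquitin ligase of p53, stood at -0.08 and 0.04, and these signs change with the setting. CCNG2, an atypical cyclin, rose by 0.52 (limma adjusted p = 0.0209) with p53i, a call lost without LacZi untreated replicate 2 or either 50 h array (0.40 to 0.47). The CCNG2 call was also lost with the mean of its probe sets (0.17, limma adjusted p = 0.45), with the ACTB ratio in the model (0.42, limma adjusted p = 0.189), without the 2 arrays of highest ratio (0.57), with no trend and with group means. STEAP3, a metalloreductase, fell by 0.35 (limma adjusted p = 0.0198), a call lost without any 1 of the 6 D3 arrays (-0.36 to -0.32). The STEAP3 call was also lost with the ACTB ratio in the model (-0.38, limma adjusted p = 0.0815), without the 2 arrays of highest ratio (-0.35), and with median centring, probe set means, no trend or group means.

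With D3, GDF15, a stress-induced cytokine, rose by 1.07 ± 0.207 (SE; limma adjusted p = 0.0166), from 59.7 to 130 units untreated to 99.7 to 378 with D3, and by 1.77 at 50 h (limma adjusted p = 0.00568). The mean call was lost without the LacZi 8 h, LacZi 20 h, p53i 20 h or p53i 50 h array (0.94 to 1.09), and the 50 h call without the p53i 50 h array (1.55). IGFBP3, which binds insulin-like growth factors and is itself a vitamin D responsive gene, rose by 0.82 (limma adjusted p = 0.0448), a call lost without any 1 array other than p53i 50 h (0.68 to 0.94). The calls of GDF15 and IGFBP3 were both lost with no trend, with group means and without the 2 arrays of highest ACTB ratio (0.92 and 0.73). The IGFBP3 call was lost too with quantile normalization, median centring, no filter and every probe set fitted. Medians of the list were -0.04 for the siRNA and -0.02 for D3, against -0.00493 and -0.00471 for all genes.

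Of 28 nucleotide excision repair and translesion genes tested, a list that holds DDB2, POLH and XPC, 1 rose with p53i and 0 fell, and 3 fell with D3 and 0 rose. The called shares of all genes were 6.49% and 4.4%. An unadjusted limma p under 0.05 was reached by 5 and 6 of the 28, compared with 22.9% and 19.4% of all genes. ERCC1, a subunit of the incision nuclease, rose by 0.34 (limma adjusted p = 0.0457) with p53i. Its call was lost in every fit with an array left out except that without p53i untreated replicate 1 (0.29 to 0.38), and the sign turned where the brightest probe set changed (-0.04 without either 20 h array). With the ACTB ratio in the model ERCC1 stood at 0.22 (limma adjusted p = 0.351), and with the mean of its probe sets at 0.16 (limma adjusted p = 0.266). MAD2L2, a subunit of polymerase zeta, fell by 0.61 (limma adjusted p = 0.0261) with D3, from 368 to 468 units untreated to 189 to 326 with D3, the other falls being DDB2 and POLH. That call was lost without either untreated replicate 1, LacZi 8 h, p53i 20 h or p53i 50 h (-0.57 to -0.53). It was also lost with no trend, with group means and without the 2 arrays of highest ACTB ratio. At 50 h MAD2L2 fell by 0.80 (limma adjusted p = 0.0278), lost without either untreated replicate 1 or either 50 h array (-0.98 to -0.62), and ERCC1 rose by 0.51 (limma adjusted p = 0.0437), lost in every such fit except that without p53i untreated replicate 2 (0.47 to 0.51). The list's median D3 difference was -0.05.

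Of 17 damage-signalling genes, among them the kinases that activate p53, 0 were called between the siRNAs by limma and 1 fell with D3. The called shares of all genes were 6.49% and 4.4%. An unadjusted limma p under 0.05 was reached by 4 of the 17 for the siRNA, compared with 22.9% of all genes, and by 8 of the 17 for D3, compared with 19.4%. The gene that fell was MDC1, the mediator of the damage checkpoint, by 0.52 (limma adjusted p = 0.0383). Its call was lost without any 1 array other than LacZi untreated replicate 2 or LacZi 8 h (-0.58 to -0.42). It was also lost with no filter, probe set means, every probe set fitted, no trend, group means and without the 2 arrays of highest ACTB ratio. The list's median D3 difference was -0.17.

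The 3 targets below the filter were TNFRSF10C, a decoy receptor for the death ligand TRAIL, SPATA18, a regulator of mitochondrial quality, and TRIM22, an antiviral ubiquitin ligase that interferon also induces. SPATA18 read 2.95 to 11.3 units and TNFRSF10C 1.23 to 46.5 units, near the background. TRIM22 had LacZi signals of 28.1 and 38.5 untreated and 15.8, 12.5 and 25.5 with D3, and p53i signals of 43.1 and 31.5 untreated and 25.1, 49.7 and 107 with D3. With no filter, its siRNA difference was 0.67 ± 0.277 (SE; limma adjusted p = 0.252), and none of the 3 was called in either comparison. The p53i 50 h array was the only one above 50 units for TRIM22.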

How the data were processed

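RNA from 10 SKBR3 samples was measured on Affymetrix arrays; groups came from the labels. The deposited intensities are MAS5 signals per the submitters' processing notes, 1 for each of 54675 probe sets, on a linear scale (MAS5 version: not given in the sources used here). Trimmed by 2% at each end, the mean signal of all arrays was 200, and no further normalization was applied. The number of arrays limits the precision.

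Gene names came from the platform annotation: 41097 carried 1 symbol, 1801 several and 11777 none, and 42 symbols found no RefSeq match and were kept. The deposited intensities were converted here to log2(signal + 16), which understates changes of weak genes; the upper 50% of probe sets was kept, and limma 3.58.1 in R 4.3.3 (lmFit, eBayes with an intensity trend, two-sided) was fitted over all 10 arrays with Benjamini-Hochberg adjustment over 12034 genes. The siRNA and D3 effects came from an additive model (5 residual degrees of freedom), effects within each siRNA from one with a siRNA-by-D3 term (4). The lone D3 arrays are taken to vary as much as the untreated ones. The members and lists were chosen with earlier results of these data known. Named genes were all members, CDKN1A and MDM2, and genes called in the p53 pathway, damage and repair lists; luminal and leukocyte markers were named after their values were seen. Alternatives changed normalization, offset, filter, probe set choice, trend, model, replicate block, ACTB ratio and each array left out. Fits that keep the reported probe sets were added after seeing the data.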

Additional observations from a re-analysis of the deposited data

How the results depend on the processing

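Over the alternatives, 787 of 1138 values of the targets and list genes kept their direction and side of the threshold. Of the rest, 310 lost a call, 19 gained one and 22 turned sign, and the cause was not tested. The 1138 include results not called in the main fit, which could not lose a call. The 787 therefore do not measure how steady the calls were. Fits with an array left out count both with probe sets chosen again and with the reported ones kept. Targets called between the siRNAs fell from 2 to 1 with no filter, probe set means, no trend, group means, the ACTB covariate or without the 2 arrays of highest ratio. With D3 the count of 4 became 2 with the upper 25% of probe sets or no trend and 0 with group means. With the upper 25%, DDB2 and POLH lay below the filter. Their calls in that setting, also at 20 and 50 h below, were therefore not tested rather than lost. At 20 h the count of 1 became 0 with no offset, no filter, the upper 25%, every probe set fitted, no trend, group means or without the 2 arrays. At 50 h the count of 4 became 2 with no offset, the upper 25%, every probe set or no trend, 1 with no filter and 0 with group means. Leaving out 1 array gave 1 to 2 for the siRNA, 0 to 5 for D3 (0 to 6 with the reported probe sets kept), 0 to 2 at 20 h, 0 to 5 at 50 h (0 to 6), 0 to 1 in untreated cells, and 0 for 8 h and the difference of D3 effects.

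No label ties the untreated replicates of the same number across the siRNAs. Replicate 1 minus replicate 2 correlated at r = 0.215 over genes between the siRNAs. Whether replicates of the same number were handled together was not tested. With the replicate block, counts were 2 for the siRNA, 6 for D3, 3 at 20 h, 6 at 50 h and 3 in untreated cells.

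Signs turned mostly for values near 0 or where the brightest probe set changed. For the siRNA, POLH stood at -0.0792 with probe set means and from -0.068 to 0.338 with an array left out (lowest without LacZi 20 h). ZMAT3 ran from -0.509 to 0.154, and was above 0 without LacZi untreated replicate 2 (0.0814) or LacZi 8 h. MDM2 stood at 0.131 with probe set means and from -0.165 to 0.0107, above 0 without either 50 h array, and ERCC1 at -0.00308 without the 2 arrays and from -0.041 to 0.38, below 0 without either 20 h array. For D3, POLH ran from -0.875 to 0.0166, above 0 without LacZi 20 h. MDM2 stood at -0.0547 with median centring and -0.038 without the 2 arrays, and ran from -0.0376 to 0.109, with -0.0367 without p53i 8 h and -0.025 without p53i 20 h. Signals near the filter limit DDB2, TNFRSF10C, SPATA18 and TRIM22.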

Other observations

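Between the untreated arrays of one siRNA, 0 of 27 targets in LacZi cells and 1 of 27 in p53i cells differed by over 2-fold, compared with 2.67% and 3.58% of all genes. The target was TP53I11, which differed by 1.22 on the log2 scale between the p53i arrays (198 and 76.1 units). In LacZi cells DDB2 differed most, by 0.763. The median size of the difference was 0.229 and 0.364 for the targets in LacZi and p53i cells and 0.189 and 0.25 for all genes.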
